A study of Mus musculus with 9 samples.

Results

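Skeletal muscle contracts when an electrical signal at the cell surface releases calcium from an internal store, a step called excitation-contraction coupling. The 10 genes described here encode parts of that machinery: the calcium release channel (Ryr1), the voltage sensor (Cacna1s, Cacnb1 and Cacng1), the calcium pump (Atp2a1), the calcium store proteins (Casq1 and Casq2) and the proteins of the membrane junction (Jph1, Jph2 and Trdn). They were chosen by name, as genes of the triad, the calcium channel and the calcium store, with earlier results of these data known. All 10 were found among the 47729 genes of the count table and all 10 passed the filter on low counts, which kept the 13324 genes that reached 1 CPM in 3 or more libraries. CPM is the read count of a gene scaled to a common library size, here with TMM (trimmed mean of M) factors.

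The RNA came from C2C12, an established mouse myoblast line. WT is the control population, treated with a non-targeting sgRNA, and Per1KO and Per2KO are populations in which the clock genes Per1 or Per2 were targeted with CRISPR-Cas9. Each population was sampled undifferentiated on day 0, in DMEM with 10% FBS, and on days 3 and 5 after the switch to DMEM with 5% horse serum, which makes myoblasts stop dividing and fuse to form myotubes. There is 1 library for each population and day, 9 in all, so a genotype effect was judged against its variation over the 3 days and a day effect against its variation over the 3 genotypes, and every p-value speaks of these 3 populations only. The tissue entry of the labels reads whole muscle, while the cell line entry and the growth conditions are those of cultured C2C12.

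In a muscle fibre the surface membrane folds inward as T-tubules, which meet sacs of the sarcoplasmic reticulum at the triad. The voltage sensor, an L-type calcium channel in the T-tubule, opens the ryanodine receptor across the narrow gap, and calcium leaves the reticulum. Calsequestrin holds calcium inside the store next to the release channel, triadin links calsequestrin to that channel, junctophilins hold the 2 membranes together, and the SERCA pump returns calcium so that the fibre relaxes. Myoblasts have no triads, and these genes are known to be switched on as myotubes form.

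The 10 genes lie on 6 mouse chromosomes (build GRCm38, which is mm10; gene spans from GENCODE M21). Ryr1 spans chr7:29003344-29125179, Cacna1s chr1:136052750-136119822, Cacnb1 chr11:98001508-98023034, Cacng1 chr11:107703218-107716522 and Atp2a1 chr7:126445858-126463108. Casq1 spans chr1:172209894-172219868, Casq2 chr3:102086415-102146514, Jph1 chr1:16964560-17097889, Jph2 chr2:163336242-163397993 and Trdn chr10:33080554-33476709. Cacna1s, Casq2 and Trdn are on the plus strand and the others on the minus strand. RefSeq start windows (GRCm38.p6), each of 300 bases with 250 before and 50 after a transcription start, were found for 7 of the 10 genes. They are shown because the members rose together during differentiation, and 5 are printed because they hold a sequence to which muscle transcription factors are known to bind. CAGCTG is the form of E-box (CANNTG) favoured by the MyoD and myogenin family, and the MEF2 site is bound by factors that act with them. In each line below the capitals mark the CAGCTG or, for Casq2, the MEF2 site, 5′ to 3′ on the gene's strand.
Cacna1s, chr1:136052561-136052860: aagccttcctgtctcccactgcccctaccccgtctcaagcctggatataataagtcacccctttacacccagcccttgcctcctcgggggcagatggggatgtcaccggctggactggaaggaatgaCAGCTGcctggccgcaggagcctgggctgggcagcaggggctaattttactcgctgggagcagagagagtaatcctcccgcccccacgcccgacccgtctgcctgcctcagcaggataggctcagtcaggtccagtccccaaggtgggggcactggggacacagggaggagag
Atp2a1, chr7:126463024-126463323: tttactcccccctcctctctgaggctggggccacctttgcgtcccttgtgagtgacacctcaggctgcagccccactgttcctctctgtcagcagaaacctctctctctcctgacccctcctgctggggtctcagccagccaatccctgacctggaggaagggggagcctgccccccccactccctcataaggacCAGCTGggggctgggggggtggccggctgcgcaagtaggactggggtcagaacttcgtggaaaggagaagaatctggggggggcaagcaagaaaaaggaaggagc
Casq1, chr1:172219846-172220145: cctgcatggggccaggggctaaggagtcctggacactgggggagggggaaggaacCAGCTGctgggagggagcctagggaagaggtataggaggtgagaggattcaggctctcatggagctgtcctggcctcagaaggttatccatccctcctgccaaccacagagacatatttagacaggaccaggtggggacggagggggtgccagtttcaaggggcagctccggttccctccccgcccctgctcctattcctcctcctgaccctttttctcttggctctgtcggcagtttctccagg
Jph2, chr2:163397944-163398243: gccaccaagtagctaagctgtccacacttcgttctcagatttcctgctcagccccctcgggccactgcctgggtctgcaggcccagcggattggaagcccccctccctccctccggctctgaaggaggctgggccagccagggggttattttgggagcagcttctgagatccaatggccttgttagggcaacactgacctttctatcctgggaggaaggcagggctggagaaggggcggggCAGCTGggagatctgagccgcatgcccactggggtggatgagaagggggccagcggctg
Casq2, chr3:102086165-102086464: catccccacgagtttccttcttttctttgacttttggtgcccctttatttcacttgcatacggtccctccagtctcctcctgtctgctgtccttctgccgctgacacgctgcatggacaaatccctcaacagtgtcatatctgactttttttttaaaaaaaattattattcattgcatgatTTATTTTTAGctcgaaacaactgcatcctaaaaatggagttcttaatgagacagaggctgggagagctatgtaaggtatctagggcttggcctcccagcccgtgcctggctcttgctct

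Both strands were searched, and CAGCTG and CACGTG read the same on both. CAGCTG starts 123 bases before the transcription start in Cacna1s, 55 before it in Atp2a1, 195 before it in Casq1 and 9 before it in Jph2, and it is also in the second Jph2 window. The MEF2 site starts 69 bases before the Casq2 start. So 4 of the 7 members with a window hold CAGCTG, against 16.3% of all 32851 windows in the table, and 1 holds the MEF2 site, against 3.187%. Every CAGCTG is also a CANNTG, which 72.31% of all windows hold. CACGTG, the E-box bound by the clock activators CLOCK and BMAL1 that PER proteins restrain, is in 7.15% of all windows and in none of these. The windows of Ryr1 and Cacnb1 hold neither CAGCTG nor the MEF2 site. Such matches describe letters in a window of this size and not binding.

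Library totals ranged from 5020385 to 6773320 counts in WT and from 41997763 to 48051824 in the knockouts, a ratio of the means of 7.816. Only the WT titles carry a suffix that may name a sequencing lane, and the titles do not say what it stands for. Depth, a possible difference in sequencing and genotype therefore cannot be told apart, and each difference from WT below may hold any of them. Markers placed the cells in the muscle lineage. The summed level of 6 myotube markers rose from 704.9 CPM on day 0 to 15970 and 17740 CPM in WT, from 103.1 to 7115 and 11670 CPM in Per1KO and from 69.25 to 6575 and 9590 CPM in Per2KO, and all 6 passed the test on day 5 against day 0. Of 7 heart muscle markers, 4 (Myh6, Tnni3, Tnnt2 and Actc1) rose by day 5, of which Tnnt2 and Actc1 are also known in developing skeletal muscle. That list summed to 192.8 to 3923 CPM in WT and 32.23 to 2330 CPM in the knockouts, mostly from Tnnt2 and Actc1. Ryr2 and Nppa had at most 0.04871 and 0.2199 CPM in any library. Nppb had 1.319 to 4.015 CPM, Myh6 reached 29.69 CPM in WT on day 5 and Tnni3 16.09 CPM in Per1KO on day 5. The 3 endothelial markers had together at most 0.4331 CPM. Of 4 fibroblast markers, Thy1 and Tcf21 were at 0 in all 9 libraries, while Col1a1 and Pdgfra were lower in both knockouts. That list summed to 667.5 to 3690 CPM in WT and 71.28 to 313.7 CPM in the knockouts, and its part in the differences below was not tested. RNA of the targeted genes is no check of a CRISPR edit that leaves the transcript in place. Per1 had 35.59, 33.75 and 31.01 CPM in WT on days 0, 3 and 5 and 20.87, 32.42 and 28.95 CPM in Per1KO; Per2KO, in which it was not targeted, had 16.46, 30.43 and 32.93 CPM. Per2 had 9.745, 11.49 and 20.45 CPM in WT and 3.504, 9.128 and 8.379 CPM in Per2KO, and 6.591, 9.441 and 10.57 CPM in Per1KO, so lower values were not limited to the targeted population. Over the 3 days Per2 passed the edgeR test in Per2KO (log2 fold change -1.02, adjusted p = 0.0230). It did not in Per1KO (-0.62, adjusted p = 0.111). Per1 passed in neither Per1KO nor Per2KO (adjusted p = 0.310 and 0.232, edgeR).

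All 10 genes rose during differentiation. Day 3 was above day 0 with an adjusted p under 0.05 for 10 of 10 members, against 18.1% of all genes called higher, and day 5 was above day 0 for 10 of 10, against 23.2% of all genes. The test throughout is edgeR's quasi-likelihood test with Benjamini-Hochberg adjustment over the 13324 genes. In each of the 3 populations, all 10 members were at least 2-fold higher on day 3 than on day 0. Of all genes, 1183 of 12868 were in WT, 1482 of 13021 in Per1KO and 1438 of 13034 in Per2KO. The members' median fitted log2 fold change was 4.060 on day 3 and 5.502 on day 5, where the medians of all genes were -0.012 and -0.009. The members' summed level went from 447.3 to 3252 and 5021 CPM in WT, from 187.6 to 2112 and 4333 CPM in Per1KO and from 189.2 to 1924 and 3469 CPM in Per2KO. The size of the rise differed widely among them, from 2.24 ± 0.18 (SE) on the log2 scale for Cacng1 to 9.57 ± 0.25 for Casq1 on day 5 against day 0.

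**Figure D1:**
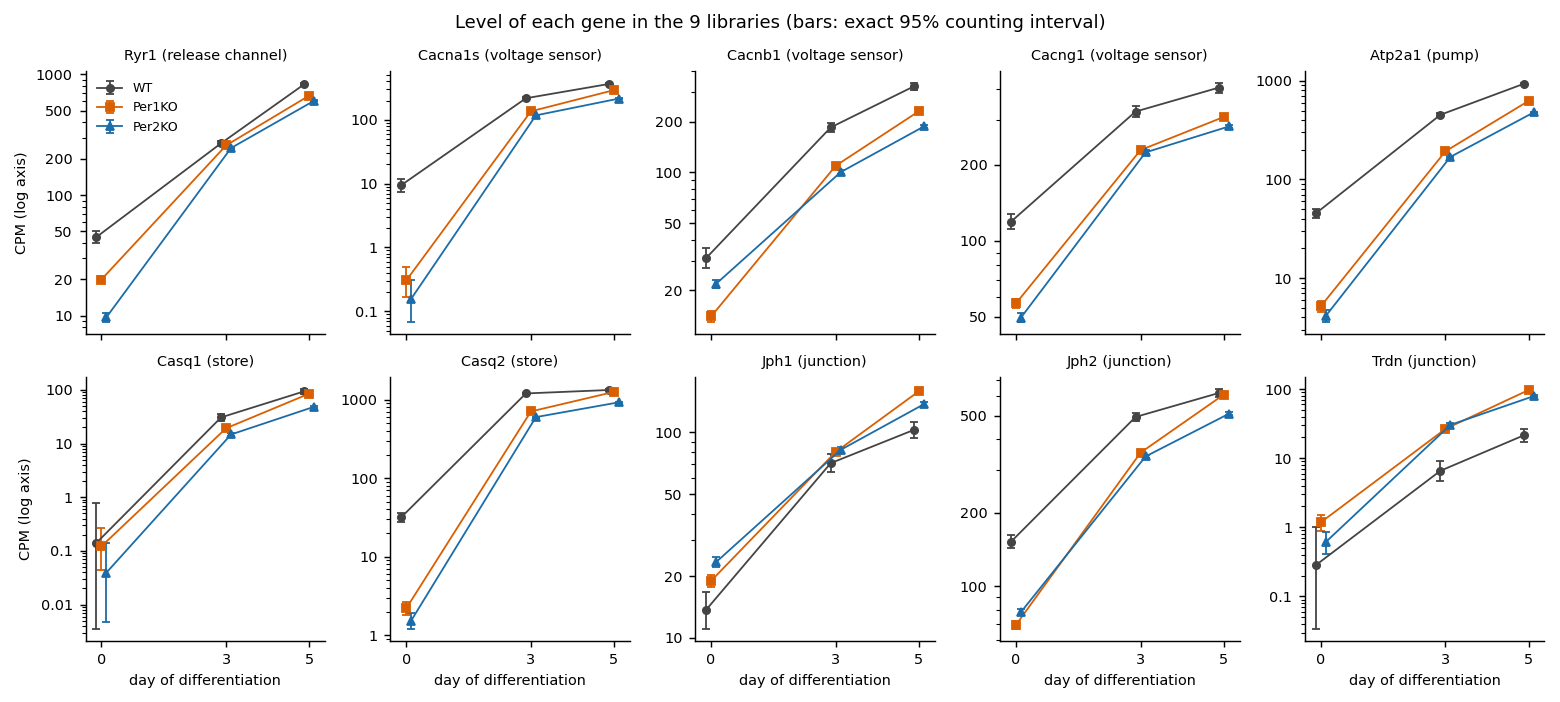
Level of each of the 10 genes (CPM, log axis) by day of differentiation in WT, Per1KO and Per2KO; points are single libraries and bars exact 95% counting intervals. All lines rise; the WT line lies above both knockouts in most panels, with its widest lead on day 0, and lies lowest for Jph1 and Trdn.

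The calcium release channel of skeletal muscle, Ryr1, had 44.77 CPM on day 0, 268.7 on day 3 and 829.5 on day 5 in WT. Its levels were 19.89, 257.9 and 668 CPM in Per1KO and 9.666, 245.4 and 606 CPM in Per2KO. The 3 populations lay close together on day 3, where the Per1KO to WT ratio was 0.960 (95% interval 0.909 to 1.01), and far apart on day 0, where Per2KO held 0.216 of the WT level (0.187 to 0.249). These intervals, like all intervals for single libraries below, cover counting error only. Over the 3 days the difference from WT did not pass the test in Per1KO (log2 fold change -0.56 ± 0.35, adjusted p = 0.294) or in Per2KO (-0.90 ± 0.35, adjusted p = 0.115). In CPM, most of the Ryr1 rise came after day 3: that day held 32.4% of the day 5 level in WT, 38.61% in Per1KO and 40.5% in Per2KO. The rise from day 3 to day 5 did not pass the test (1.41 ± 0.34, adjusted p = 0.109).

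The voltage sensor pore, Cacna1s, showed the widest gap between populations on day 0. WT had 9.462 CPM there (67 counts), Per1KO 0.3042 CPM (15 counts) and Per2KO 0.1575 CPM (8 counts), so that WT was 31.1 times Per1KO and 60.1 times Per2KO; the intervals of the inverse ratios are 0.0171 to 0.0569 and 0.00690 to 0.0347. By day 3 the levels were 217.5, 135.7 and 117.3 CPM, and by day 5 they were 364.4, 291.9 and 215.2 CPM. The distance from WT thus shrank to ratios of 0.801 (0.761 to 0.844) in Per1KO and 0.591 (0.560 to 0.623) in Per2KO on day 5. With the 3 days in 1 fit, whose spread takes in this change of distance, neither difference passed the test (-1.58 ± 0.85, adjusted p = 0.232, and -1.92 ± 0.86, adjusted p = 0.157). Without the WT day 0 library, an alternative chosen after seeing the data, both did. The values were smaller: -0.48 (adjusted p = 0.0358) in Per1KO and -0.84 (adjusted p = 0.00402) in Per2KO. Of all genes 27% and 28.1% were then called, against 19.3% and 19.9% in the main fit.

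Cacnb1, the β subunit that carries the pore to the triad, and Cacng1, the γ subunit, were below WT in both knockouts on every day. Cacnb1 had 31.07, 185 and 323.9 CPM in WT on days 0, 3 and 5. It had 14.01, 109.6 and 230.7 CPM in Per1KO and 21.87, 100.5 and 187.3 CPM in Per2KO. The fitted differences of Cacnb1 passed the test in Per1KO (-0.78 ± 0.18, adjusted p = 0.0220) and in Per2KO (-0.72 ± 0.18, adjusted p = 0.0288). Cacng1 was already the most abundant member per kilobase of exon on day 0, with 119.1 CPM in WT, 56.56 in Per1KO and 49.67 in Per2KO. On day 3 it had 325.3, 229 and 224.2 CPM and on day 5 it had 404.6, 309.6 and 283.9 CPM. Its differences from WT also passed the test (-0.67 ± 0.17, adjusted p = 0.0306, and -0.78 ± 0.17, adjusted p = 0.0167), and it was lower than WT in 6 of 6 library pairs. Of the 10 it rose least, 3.4-fold in WT and 5.48-fold in Per1KO by day 5.

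Atp2a1 encodes SERCA1, the pump of fast fibres. WT had 45.19, 453.2 and 932.9 CPM on days 0, 3 and 5, Per1KO 5.151, 193 and 626.2 CPM and Per2KO 4.114, 169.4 and 478.2 CPM. Each knockout value lay below the WT value of its day, by 8.77 times in Per1KO and 10.98 times in Per2KO on day 0 and by 1.49 and 1.95 times on day 5. The fit gave -1.70 ± 0.49 for Per1KO (adjusted p = 0.0493) and -2.001 ± 0.50 for Per2KO (adjusted p = 0.0284). The Per1KO value lies at the threshold: 7 alternatives ended the call, with an adjusted p from 0.0569 (a filter of 10 CPM) to 0.226 (no filter), among them thinned knockout counts (0.0622) and leaving out day 3 (0.162) or day 5 (0.0739). Taking out the WT day 0 library, chosen after seeing the data, moved the log2 fold change to -0.90 (adjusted p = 0.00642). In that fit 27% of all genes were called in Per1KO, against 19.3% in the main fit. Between days 3 and 5 the gene went on rising, since day 3 held 48.58% of the day 5 level in WT, 30.82% in Per1KO and 35.41% in Per2KO. This further rise did not pass the test (1.47 ± 0.47, adjusted p = 0.200). Of its exons, 21.94% overlap those of Rabep2 on the other strand, and strand use in counting is not given in the sources used here; Rabep2 itself had 126 to 227 counts in WT and 1035 to 1267 in the knockouts.

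The calsequestrins separated by abundance. Casq2, known as the cardiac form and also present in young and slow muscle, was the most abundant member per kilobase on days 3 and 5 in all 3 populations. It had 31.78, 1201 and 1329 CPM in WT, 2.19, 708.3 and 1257 CPM in Per1KO and 1.535, 599.9 and 926.5 CPM in Per2KO. On day 0 the knockouts were 14.5 and 20.7 times below WT, and on day 5 the ratios were 0.946 (0.921 to 0.972) in Per1KO and 0.697 (0.678 to 0.716) in Per2KO. WT was near its final Casq2 level by day 3 (90.33% of day 5), whereas day 3 held 56.33% in Per1KO and 64.75% in Per2KO. The Casq2 differences from WT did not pass the test over 3 days (adjusted p = 0.169 and 0.108).

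Casq1, the calsequestrin of fast adult fibres, began at 1 count in WT, 6 in Per1KO and 2 in Per2KO on day 0, where no difference between populations was detectable. It reached 30.83 and 94.34 CPM in WT on days 3 and 5, 19.34 and 85.37 CPM in Per1KO and 14.82 and 48.71 CPM in Per2KO. Both knockouts were below WT on day 3: Per1KO held 0.627 of its level (0.532 to 0.743) and Per2KO 0.481 (0.406 to 0.572). By day 5 Per2KO held 0.516 (0.465 to 0.574), while the Per1KO interval of 0.818 to 1.00 reached the WT level. The fitted difference was -1.02 ± 0.18 in Per2KO (adjusted p = 0.00628) and -0.38 ± 0.18 in Per1KO (adjusted p = 0.174). The difference between the 2 knockouts for Casq1, 0.65 ± 0.17, had an unadjusted p of 0.00536 and did not pass after adjustment over all genes (adjusted p = 1.00, edgeR).

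Triadin went the other way. Trdn had 0.2825 CPM (2 counts), 6.568 CPM (36 counts) and 21.33 CPM (97 counts) in WT on days 0, 3 and 5. Per1KO had 1.176, 26.5 and 96.76 CPM, and Per2KO had 0.6103, 30.32 and 78.89 CPM. Both knockouts were above WT on every day, although with 2 counts in WT the day 0 interval for Per2KO (0.550 to 18.6 times) includes 1. The ratios to WT were 4.03 (2.90 to 5.79) in Per1KO and 4.62 (3.32 to 6.62) in Per2KO on day 3, and 4.54 (3.71 to 5.61) and 3.70 (3.02 to 4.57) on day 5. The difference passed the test in Per1KO (2.17 ± 0.24, adjusted p = 0.000789) and in Per2KO (1.93 ± 0.24, adjusted p = 0.00126), and Trdn was the only member called higher in either. With the knockout counts thinned to the WT totals the values were 2.15 and 1.94 (adjusted p = 0.000660 and 0.00118). Leaving out day 5 raised the adjusted p in Per2KO to 0.0566. None of its exons overlaps another annotated gene. None of the runs of 31 bases in its longest transcript is found in the longest transcript of another gene.

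The junctophilins, which span the gap between T-tubule and reticulum, moved apart. Jph2, the form shared by heart and skeletal muscle, had 151.8, 493.3 and 618.2 CPM in WT, 69.25, 352.1 and 608.9 CPM in Per1KO and 78.15, 339.7 and 507.8 CPM in Per2KO. Per1KO met WT on day 5, with a ratio of 0.985 (0.947 to 1.02). Jph1, the form of skeletal muscle, had 13.7, 70.79 and 102.7 CPM in WT, 18.94, 80.27 and 158.3 CPM in Per1KO and 23.37, 82.17 and 136.9 CPM in Per2KO. It was above WT in 6 of 6 library pairs, with all 6 counting intervals above 1. Over the days neither gene's difference passed: Jph1 gave 0.42 ± 0.14 (adjusted p = 0.0819) and 0.46 ± 0.15 (adjusted p = 0.0621), and Jph2 gave -0.55 ± 0.20 (adjusted p = 0.0878) and -0.61 ± 0.20 (adjusted p = 0.0635).

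**Figure D2:**
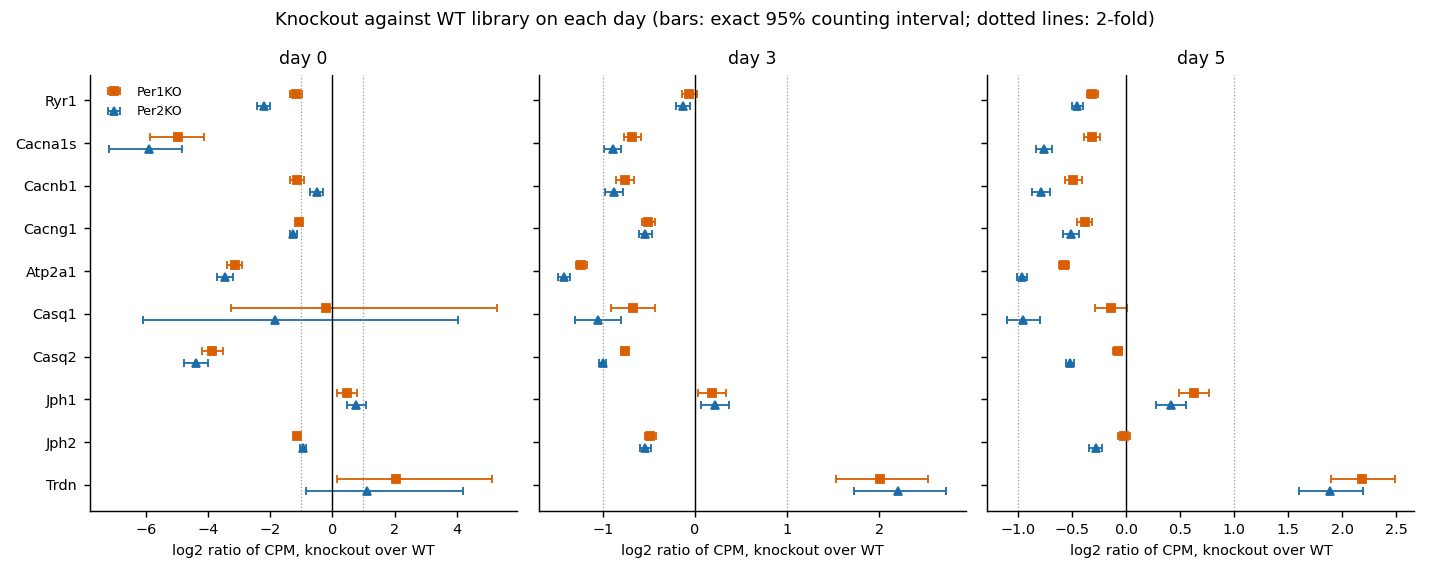
Log2 ratio of CPM, knockout over WT, for each gene on days 0, 3 and 5 (x axes differ between panels); bars are exact 95% counting intervals and dotted lines mark 2-fold. On day 0 most genes lie left of 0, by up to 60.1 times for Cacna1s; by day 5 only Trdn is beyond 2-fold, on the right.

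Set side by side on each day, most members came nearer to WT. The log2 difference was smaller in size on day 5 than on day 0 for 8 of 10 members in each knockout. The exceptions were Trdn in both (1.850, 2.003 and 2.178 on days 0, 3 and 5 in Per1KO, and 0.967, 2.197 and 1.884 in Per2KO), Jph1 in Per1KO (0.466, 0.181 and 0.624) and Cacnb1 in Per2KO (-0.505, -0.880 and -0.790). Casq1 is among the 8 in both knockouts, but its day 0 differences rest on 6 counts in Per1KO and 2 in Per2KO against 1 in WT. Its distance from WT on day 0 is therefore not known. How many of all genes came nearer to WT was not counted, so the 8 of 10 cannot be set against a background. On day 0, 7 of 10 members were at least 2-fold lower in Per1KO (8.05% of all genes were) and 6 of 10 in Per2KO (8.61%), and 1 (7.65%) and 0 (7.73%) at least 2-fold higher. On day 3, 1 member was at least 2-fold lower in Per1KO (7.7% of genes) and 3 in Per2KO (8.47%), and Trdn was higher in both (8.63% and 8.93%). On day 5 no member was 2-fold lower in Per1KO (9.14% of genes) or Per2KO (9.08%), and Trdn was again the 1 higher (9.02% and 9.31%). In Per1KO the members' median log2 difference from WT was -1.139 on day 0, -0.589 on day 3 and -0.228 on day 5. In Per2KO it was -1.137, -0.709 and -0.516. Both columns use the same WT libraries, 1 each day, so they are no independent repeats. The myotube markers were also higher in WT than in either knockout on day 0, summing to 704.9 CPM in WT against 103.1 and 69.25 CPM; fewer myotube-like cells and less of this RNA in each cell cannot be told apart. The 5 proliferation markers summed to 1090, 359.2 and 120.3 CPM in WT, 1645, 509.3 and 217.4 CPM in Per1KO and 1184, 532.1 and 234.9 CPM in Per2KO. The part of either marker list in the members' differences was not tested.

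Over all 3 days, 4 members passed the test in Per1KO and 5 in Per2KO. Trdn was higher in both, 1 of 10, against 9.26% of all genes called higher in Per1KO and 9.31% in Per2KO. Cacnb1, Cacng1 and Atp2a1 were lower in Per1KO, 3 of 10 against 10.1% of all genes, and the same 3 with Casq1 were lower in Per2KO, 4 of 10 against 10.6%. The members' median log2 fold change was -0.612 in Per1KO and -0.837 in Per2KO, where the medians of all genes were -0.015 and -0.011. Leaving out a day changed the number of calls among all genes as well as among the members. Without day 5 Trdn alone was called in Per1KO (5.85% of all genes were, in either direction) and no member in Per2KO (6.42%), and without day 3 Trdn alone in each (7.42% and 6.76%). For Atp2a1 in Per1KO the fold did not shrink with the loss of its call: it was -1.985 without day 3 and -2.256 without day 5. Without day 0 the same 4 and Cacna1s were called in Per1KO (21.1% of all genes) and the same 5, Cacna1s and Casq2 in Per2KO (23.6%), although Atp2a1 in Per1KO was then smaller, at -0.9145.

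**Figure D3:**
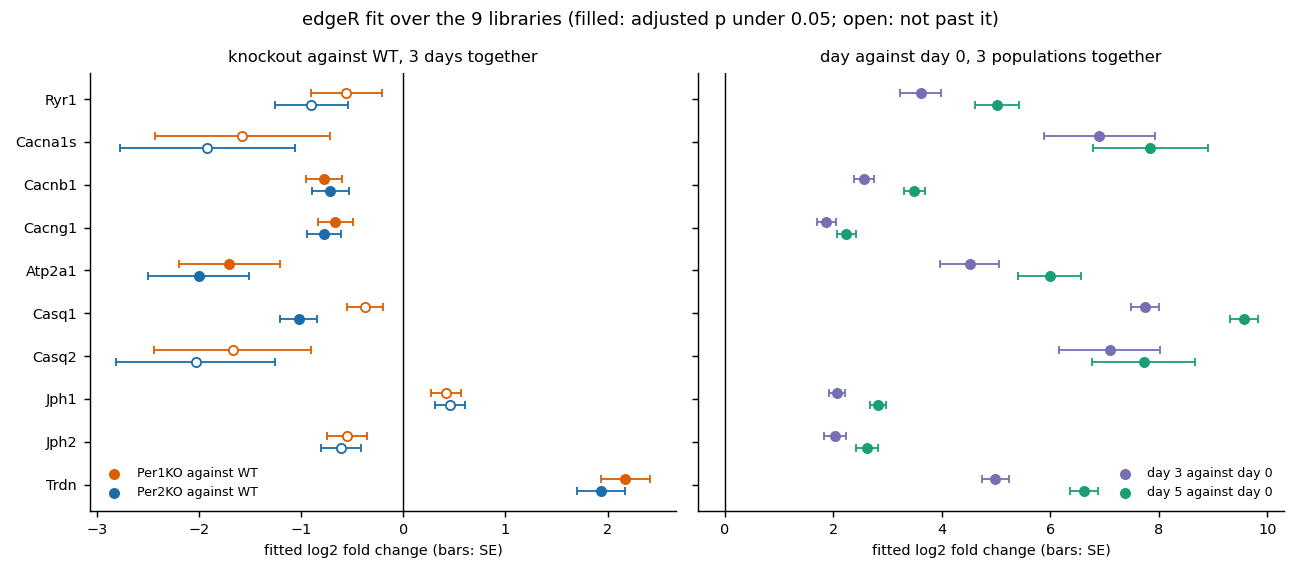
Fitted log2 fold changes with SE for the 10 genes, knockouts against WT (left) and days 3 and 5 against day 0 (right); filled points have an adjusted p under 0.05. On the left Trdn is on the far right and Cacnb1, Cacng1 and Atp2a1 are filled on the left side of 0 in both knockouts; on the right all points are filled and above 1.87.

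No member passed the test between Per1KO and Per2KO, where 0% of all genes did. The spread in that test takes in the days on which WT moved unlike the knockouts. Only 88 of the 13324 genes had an unadjusted p under 0.05 with edgeR, against 621 when the knockout libraries alone were fitted. Having no calls therefore does not show that the 2 populations were alike. DESeq2 with the same design also called 0 members, and 1 member, Casq1, had an unadjusted p under 0.05 with edgeR. The 95% intervals of the difference, from the degrees of freedom of the test, ran from -0.277 to 0.498 on the log2 scale for Cacng1 and from -0.365 to 0.282 for Jph1, but from -1.422 to 2.103 for Cacna1s. On day 5 all 10 members had more CPM in Per1KO than in Per2KO, with a median log2 difference of 0.298 and a highest one of 0.809 for Casq1. On day 0 the median was 0.408, with 7 members higher in Per1KO and Ryr1 beyond 2-fold (1.04). The median of all genes was 0.008 on day 5 and 0.015 on day 0, where 81 of 12549 genes were at least 2-fold higher. The share of all genes higher in Per1KO was not counted. Each day sets 1 library against 1, with no test.

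Between days 3 and 5, Cacnb1, Casq1, Jph1 and Trdn rose with an adjusted p under 0.05, 4 of 10 members, where 0.698% of all genes did. Casq1 rose most (1.83 ± 0.15, adjusted p = 0.00452) and Trdn next (1.63 ± 0.19, adjusted p = 0.00741). In every population all 10 members were higher on day 5 than on day 3. At least 2-fold higher were 4 members in WT, 6 in Per1KO and 4 in Per2KO. Of all genes, 701 of 12828, 314 of 12971 and 207 of 12969 were. Without WT, 10 of 10 passed (5.57% of all genes did), while with either knockout left out 0 members and 0% of all genes did. From day 3 to day 5 Casq2 gained 1.11-fold in WT, 1.77-fold in Per1KO and 1.54-fold in Per2KO, and Jph2 gained 1.25-fold, 1.73-fold and 1.495-fold.

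Whether the rise itself differed was tested as an interaction of genotype with days 3 and 5 against day 0. No member passed in Per1KO or in Per2KO, where 0% and 0% of all genes did. Cacna1s and Casq2 had an unadjusted p under 0.05 (edgeR) in each. So did 1426 of the 13324 genes in Per1KO and 1783 in Per2KO. The interaction for Cacna1s was 4.50 ± 1.07 in Per1KO and 5.07 ± 1.15 in Per2KO (adjusted p = 0.287 and 0.180), and for Casq2 it was 3.49 ± 0.63 and 3.64 ± 0.64 (adjusted p = 0.206 and 0.127). A positive value means a larger rise in the knockout. This fit takes days 3 and 5 as replicates, so the further rise from day 3 to day 5 counts as spread. With a term for day 5 against day 3 added, chosen after seeing the data and leaving 2 residual degrees of freedom, 2 members passed in Per1KO (0.42% of all genes did) and 4 in Per2KO (2.42%), all with a larger rise. Cacna1s then gave 4.44 and 5.05 (adjusted p = 0.0229 and 0.0177) and Casq2 3.43 and 3.595 (adjusted p = 0.0455 and 0.0226), and in Per2KO Ryr1 gave 1.92 (adjusted p = 0.0276) and Atp2a1 2.25 (adjusted p = 0.0396). With both knockouts taken as replicates of 1 group, 5 members passed, all with a larger rise, where 10.2% of all genes did. They were Cacna1s (4.69, adjusted p = 0.00310), Casq2 (3.51, adjusted p = 0.00260), Atp2a1 (2.25, adjusted p = 0.00452), Jph2 (0.71, adjusted p = 0.0308) and Cacng1 (0.68, adjusted p = 0.0202). Each of these fits rests on a single WT library on day 0. The fit with both knockouts as 1 group also matches every WT library exactly. Its spread is that between the 2 knockouts alone, so its p-values hold no variation of WT.

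Levels of different genes were compared per kilobase of exon. On day 5 in WT the order was Casq2 with 485.8 CPM per kilobase, Cacng1 with 324, Atp2a1 with 268.3, Jph2 with 145.3, Cacnb1 with 71.52, Cacna1s with 55.63, Casq1 with 48.36, Ryr1 with 37.98, Jph1 with 20.55 and Trdn with 2.281. Of these neighbours only Cacna1s and Casq1 had overlapping counting intervals. Trdn was the lowest of the 10 in every library of days 3 and 5, the knockouts included. The exon length counts every annotated exon of a gene, so a gene with many long variants, as Trdn has, gets a lower value on this scale. On day 0 the order was less clear, with 4 pairs of neighbours overlapping in WT, 3 in Per1KO and 4 in Per2KO.

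Several members have a related gene, and the share within such a pair does not depend on how libraries are scaled. Whether the 2 genes of a pair can replace each other was not tested. Atp2a1 made up 15.1% of the counts per kilobase of Atp2a1 and Atp2a2 in WT on day 0, 46.6% on day 3 and 54.1% on day 5. Atp2a2 encodes SERCA2, the pump of slow fibres, heart and most other cells. The Atp2a1 share was 1.75%, 24.7% and 30.8% in Per1KO and 1.501%, 21.7% and 29.7% in Per2KO. On each day the 2 knockouts lay together, and their intervals were far from that of WT (53.2 to 55.1% on day 5). Atp2a2 alone had 444.9, 907.5 and 1383 CPM in WT, 506, 1027 and 2458 CPM in Per1KO and 472.1, 1067 and 1984 CPM in Per2KO; it rose by 2.004 ± 0.17 on day 5 (adjusted p = 7.18e-05) and did not pass against WT (0.40 ± 0.16, adjusted p = 0.122, and 0.27 ± 0.16, adjusted p = 0.265). SERCA1 RNA therefore exceeded SERCA2 RNA per kilobase in 1 library of 9, that of WT on day 5, and in 0 of 9 by raw counts.

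Casq1 stayed the smaller calsequestrin in 9 of 9 libraries, at 9.05% of the pair in WT, 8.69% in Per1KO and 6.87% in Per2KO on day 5. Jph1 made up 7.13%, 10.9% and 12.4% of the junctophilin pair in WT and 16.3 to 20.3% in the 6 knockout libraries, with no overlap between the intervals of WT and those of the knockouts on any day. Ryr1 held 87.1 to 96.9% over Ryr3, the second ryanodine receptor of young muscle, which itself rose by 4.05 ± 0.22 by day 5 (adjusted p = 1.21e-05) and reached 22.87 to 25.15 CPM. Cacna1s stood almost alone, since its relative Cacna1c had 0 or 1 count in each library. Among the β subunits, Cacnb1 went from 19.2% of Cacnb1 and Cacnb3 on day 0 to 68.4% on day 5 in WT, from 12.02 to 58.4% in Per1KO and from 18.9 to 56.3% in Per2KO, so on this scale Cacnb1 passed Cacnb3 by day 3 in WT and by day 5 in both knockouts. By raw counts it was already ahead on day 3 in Per1KO (52.0% of the pair) and Per2KO (51.1%). Cacnb3 had 83.05 to 145.5 CPM throughout.

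**Figure D4:**
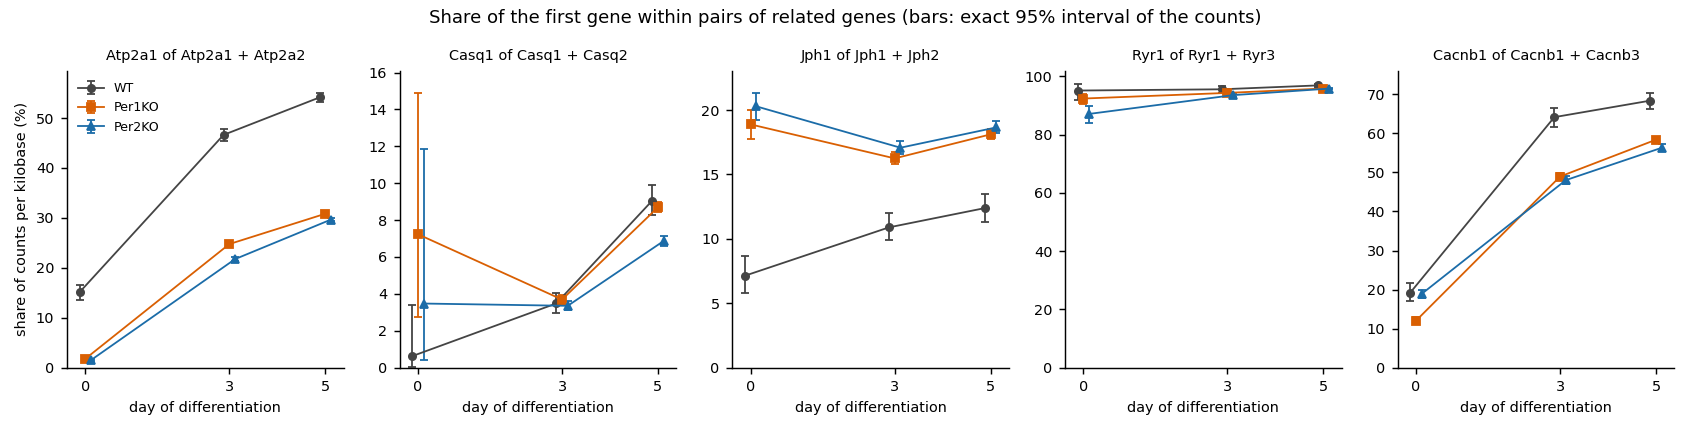
Share of counts per kilobase (%) held by the first gene of each pair, by day and population, with exact 95% intervals. WT lies above both knockouts for Atp2a1 on every day (54.1% against 30.8% and 29.7% on day 5) and below them for Jph1.

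Cacng6, Atp2a3 and Cacnb2 were the other paralogs that passed the filter. Cacng6, a γ subunit of the same family as Cacng1, was the only one called lower in both knockouts (-2.05 ± 0.34, adjusted p = 0.00564, and -2.41 ± 0.35, adjusted p = 0.00270), at 7.697 CPM in WT, 2.018 in Per1KO and 1.9 in Per2KO on day 5. Atp2a3, the pump of blood and endothelial cells, had 20.01 CPM in WT on day 5 and 0.9609 and 1.218 CPM in the knockouts, but on day 0 Per2KO had more than WT (6.201 against 3.107 CPM). It passed in Per1KO alone (-3.80 ± 0.94, adjusted p = 0.0293). Cacnb2 stayed between 0.7298 and 2.609 CPM.

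Of 59 further genes of the pathway in 6 lists, 46 passed the filter. None was called higher in a knockout (9.26% and 9.31% of all genes were), 11 were lower in Per1KO (10.1% of all genes) and 14 in Per2KO (10.6%), and 10 of these were lower in both, with the WT libraries shared. The median was -0.358 in Per1KO and -0.434 in Per2KO. They included Stac3, Cacng6, Bin1, Cav3, Dysf, Ank1, Speg, Scn4a and Atp2b4. On day 5 against day 0, 25 of the 46 were higher (23.2% of all genes) and 7 lower (22.9%).

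Among 10 tested partners of the junction and voltage sensor, 1 was lower in Per1KO and 2 in Per2KO, where for this and the lists below 10.1% and 10.6% of all genes were. Stac3, an adaptor without which the voltage sensor does not work in muscle, fell in both (-1.14 ± 0.29, adjusted p = 0.0295, and -1.44 ± 0.29, adjusted p = 0.0120), from 80.27 CPM in WT on day 3 to 35.88 and 31.71 CPM. Jsrp1, a junctional reticulum protein, showed the largest rise of that list by day 5 (2.93 ± 0.27, adjusted p = 0.000132), and Calm2, a calmodulin gene, the largest fall (-0.80 ± 0.12, adjusted p = 0.00106). Of 6 genes that shape the T-tubule and surface membrane, 3 were lower in Per1KO and 4 in Per2KO. Cav3, the muscle caveolin, changed most among those called in both (-1.79 ± 0.49, adjusted p = 0.0410, and -2.06 ± 0.49, adjusted p = 0.0249). It had 1.412, 51.08 and 108.2 CPM in WT, 13.02 and 47.9 CPM on days 3 and 5 in Per1KO and 12.71 and 34.83 CPM in Per2KO, with 1 and 0 counts on day 0.

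Of 10 pump regulators, store and reticulum proteins, 2 were lower in Per1KO and 4 in Per2KO. Ank1, whose small form anchors the reticulum to the myofibril, fell in both (-0.94 ± 0.24, adjusted p = 0.0292, and -1.19 ± 0.24, adjusted p = 0.0117). Selenon, a selenoprotein of the reticulum, fell by day 5 (-0.77 ± 0.14, adjusted p = 0.00274). None of 8 genes of store-operated entry and other release channels passed against WT in either knockout with edgeR, with 0 at an unadjusted p under 0.05 in Per1KO and 2 in Per2KO. Of all 13324 genes, 4661 and 4681 had such a p. In that list Stim1, the calcium sensor of the reticulum, rose most by day 5 (1.65 ± 0.11, adjusted p = 3.34e-05) and Itpr1, an inositol trisphosphate receptor, fell most (-0.80 ± 0.13, adjusted p = 0.00218). Of 6 genes of surface excitability and calcium extrusion, 3 were lower in each knockout. Scn4a, the pore of the muscle sodium channel, gave -1.21 ± 0.28 (adjusted p = 0.0215) and -1.72 ± 0.28 (adjusted p = 0.00465). Scn4a also had the largest rise by day 5 (7.35 ± 0.35, adjusted p = 8.28e-06).

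**Figure D5:**
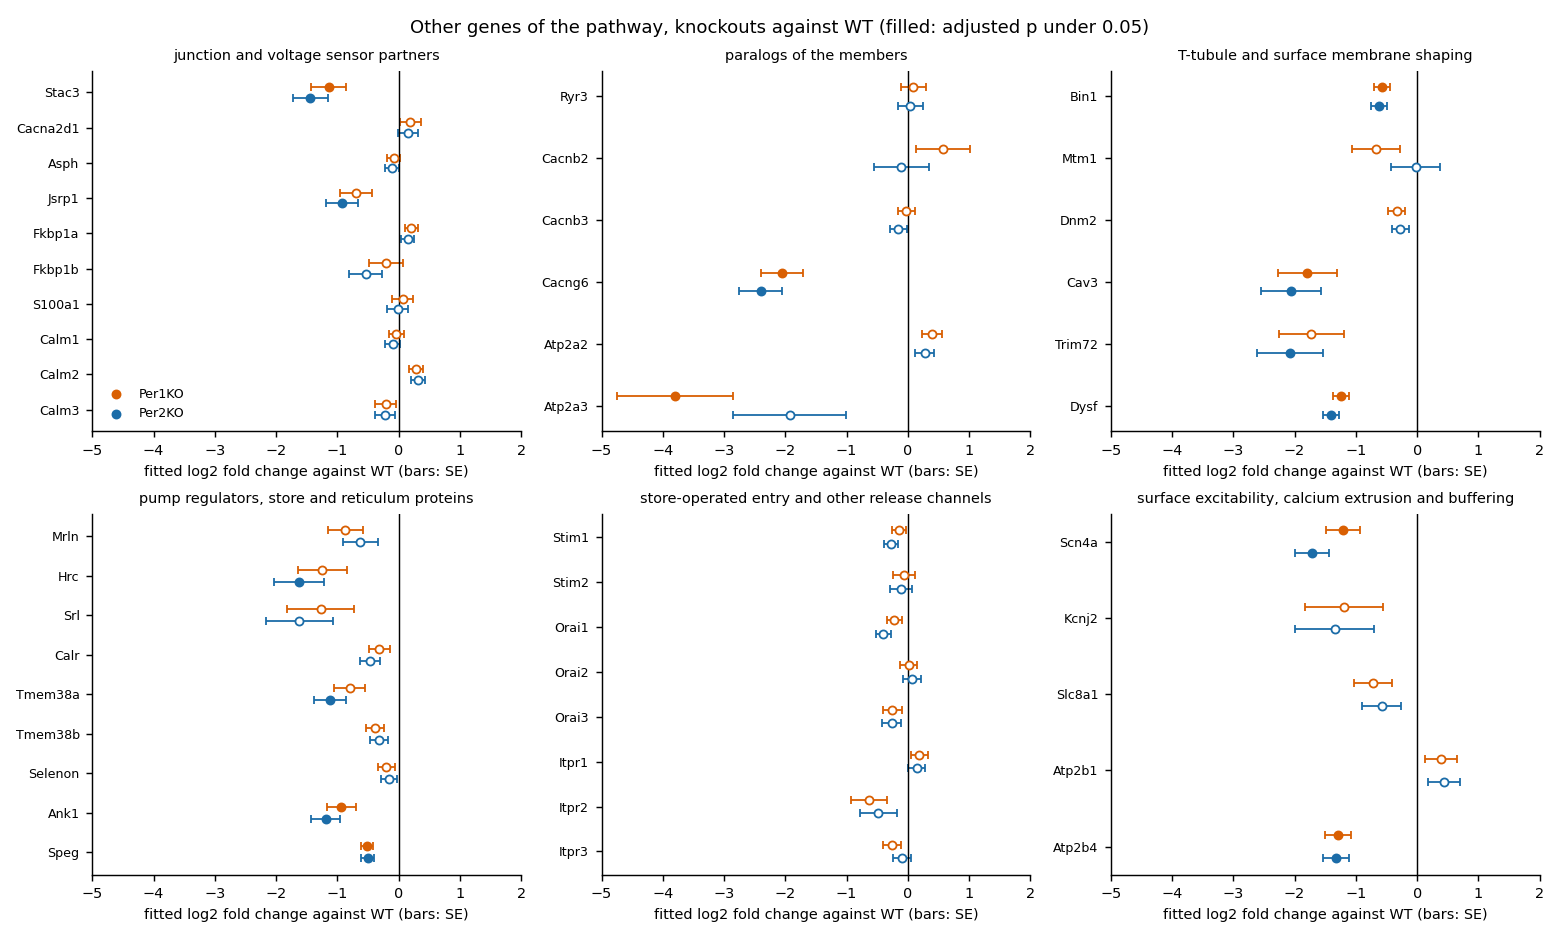
Fitted log2 fold changes against WT, with SE, for 44 of the 46 other pathway genes tested, in 6 lists; filled points have an adjusted p under 0.05. All filled points lie left of 0, and the list of store-operated entry has none.

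Across the 9 libraries the members' standardized log2 CPM profiles were alike; the 9 points share 3 days and 3 populations, with their depths. The lowest correlation was that of Cacng1 with Trdn (Pearson r = 0.795) and the highest that of Cacna1s with Casq2 (r = 0.997). Trdn had the 6 lowest values of all pairs, and its closest member was Jph1 (r = 0.975), the other gene above WT in both knockouts. Among other genes averaging 10 CPM or more, the 5 whose profile was most like the members' mean were Camk2a (r = 0.9988), Cd36 (0.9975), Paxx (0.9972), Myl1 (0.9969) and Myh4 (0.9967). Camk2a encodes a calcium-dependent kinase, Cd36 a fatty acid transporter, Paxx a DNA repair factor, Myl1 a fast myosin light chain and Myh4 a fast myosin heavy chain. Myh4 shares 30.4% and Myl1 28.4% of its runs of 31 bases with other genes, so their counts are less certain.

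For the members, such sharing, counted between the longest transcripts of genes, was low. Cacna1s shares 17.9%, nearly all with Gm37759, an antisense gene that had at most 7 counts in a library. The share was 5.39% for Casq1, 2.99% for Ryr1, 1.16% for Atp2a1 and under that for the others. The antisense or other partners whose exons overlap those of Ryr1, Casq1, Jph1 and Cacnb1 had at most 12 counts in a library.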

How the data were processed

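Poly(A)-selected RNA of 9 cultures was sequenced as single reads, per the labels' protocols. The authors deposited whole-number read counts per Ensembl gene, not normalized. Per the submitters' processing notes, CASAVA 1.8, HISAT2 2.1.0 and build mm10 were used; the counting program, annotation and use of strand are not given in the sources used here. Of 47729 genes in the table, 47224 matched a symbol.

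From the counts, CPM was computed with TMM-scaled library sizes, and genes with at least 1 CPM in 3 libraries were tested with edgeR 4.0.16 (limma 3.58.1, R 4.3.3): a robust quasi-likelihood fit of genotype and day over all 9 libraries (4 residual degrees of freedom by design), and an interaction of genotype with days 3 and 5 against day 0 (3 residual). Standard errors were derived from the fold change and its F statistic, intervals of fitted differences from the test's degrees of freedom, and calls have a Benjamini-Hochberg adjusted p under 0.05. Differences between single libraries were taken on log2 CPM (prior count 2), with no test. Intervals for counts and shares are exact (Clopper-Pearson, 95%) and reflect counting error alone, as reads lacking molecular identifiers may be copies of 1 molecule. For a gene without reads the one-sided limit of 3 counts, lower than the upper end of the 2-sided exact interval, corresponds to 0.4237 to 0.6597 CPM in WT and 0.05906 to 0.07307 CPM in the knockouts. Lengths, positions and shared runs of 31 bases come from GENCODE M21 (GRCm38), and start windows from RefSeq (GRCm38.p6). Shared runs were searched between the longest transcript of each gene only. The edgeR steps were tested on simulated data.

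Named genes were the 10 members, their paralogs that passed the filter, from each other list those with the largest rise and fall, and the 5 genes most like the members by Pearson correlation of log2 CPM. Some genes of these lists are counted but not reported here by name. The members, lists and tests were chosen with earlier results of these data known. Alternatives tried were DESeq2 1.42.0, its size factors, other filters, protein-coding genes alone, thinned knockout counts, other prior counts and leaving out libraries.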

Additional observations from a re-analysis of the deposited data

How the results depend on the processing

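The calls against WT depend on which libraries enter. Per1KO called 4 members and Per2KO 5 (19.3% and 19.9% of all genes); with only the 6 libraries compared these were 2 and 3 (10.4% and 9.48%), and with the days left out in turn they ranged from 1 to 5 (5.85% to 21.1%) and from 0 to 7 (6.42% to 23.6%). Leaving out the WT day 0 library alone, an alternative chosen after seeing the data, gave 5 and 7 (27% and 28.1%). DESeq2's Wald test called 9 in Per2KO (26%). For day 5 against day 3, where 4 members were called (1.79% of all genes), leaving out a population gave 0 to 10 (0% to 10.5%), and leaving out the WT day 0 library gave 8 (5.57%). For the response to differentiation, where 0 were called in either knockout, 5 were called with both knockouts as 1 group (17% of all genes), 2 in each with DESeq2 (1.86% and 3.57%), 1 in each without the low count filter (1.2% and 2.17%), and 2 in Per1KO and 4 in Per2KO with a term for day 5 against day 3 (0.42% and 2.42%), which was chosen after seeing the data. All 10 members stayed called on day 5 against day 0 in each alternative, and 8 to 10 on day 3 against day 0. At least 2-fold higher in Per2KO on day 0 were 0 members, but 1 (Trdn) with a prior count of 0.5 or with library totals; at least 2-fold lower in Per2KO on day 3 were 3, but 1 with library totals; at least 2-fold higher in Per1KO than in Per2KO on day 0 was 1, but 2 with a prior count of 0.5. The libraries in which Atp2a1 exceeds Atp2a2 were 1 per kilobase and 0 by raw counts. Sign changes occurred in differences that were not called. Between the knockouts, leaving out a day in turn gave -0.2529 (day 5) to 0.213 (day 0) for Cacnb1, -0.173 (day 5) to 0.08989 (day 0) for Jph1 and -0.05413 (day 5) to 0.1588 (day 0) for Jph2, and thinned counts gave 0.04251 for Jph1. In the response, both knockouts as 1 group gave 0.1201 for Casq1 in Per1KO and 0.06711 for Cacnb1 in Per2KO, and no filter gave 0.00413 for Jph1 in Per1KO. Over single members and alternatives, 691 results kept their direction and side of the threshold, 46 passed it, 36 lost it and 7 changed sign. The samples carry no replicate numbers; day is the block of the additive fits, which compare genotypes within days, while the interaction takes days 3 and 5 as replicates. Leaving out day 3 or day 5 leaves the interaction without residual degrees of freedom, so it was not run. WT has the lowest depth: its 2 and 36 Trdn counts and 1 Casq1 count set the precision of those differences. The cause of these changes was not tested.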

Other observations

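Of the 59 further pathway genes, 13 fell below the filter, and some are known for a part in excitation-contraction coupling. Sypl2, known as mitsugumin 29, a membrane protein of the triad, was chosen after its values were seen. It was at 0 on day 0 in all 3 populations, at 3.466 and 7.477 CPM in WT on days 3 and 5, and at most 0.4804 CPM in any knockout library. It passed 1 CPM in 2 libraries only and so was not tested. Sln and Pln, the small proteins that restrain the SERCA pump in other muscles, had at most 0.07307 and 0.2162 CPM in any library and 0 counts in WT. Mrln, another such regulator, ranged from 0.7706 to 9.852 CPM. It rose by 1.78 ± 0.28 on the log2 scale on day 5 against day 0 (adjusted p = 0.00158, edgeR) and was lower in the knockouts without passing the test.

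Pvalb, the calcium buffer of adult fast fibres, reached at most 0.7298 CPM, and Clcn1, the chloride channel of adult muscle, at most 0.7298 CPM. Ttn, the giant titin gene among the myotube markers, had 123.4, 539.1 and 1022 CPM in WT, 75.28, 807.3 and 1449 CPM in Per1KO and 56.18, 899.8 and 1689 CPM in Per2KO. On days 3 and 5 it was above WT in both knockouts, as Trdn and Jph1 were, and below WT on day 0; over the 3 days it did not pass the test (adjusted p = 0.918 and 0.873).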
